A study of Mus with 8 samples.

Results

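The interleukin-12 (IL-12) family was represented on the arrays by the genes of its 5 chains, Il27, Ebi3, Il23a, Il12b and Il12a, which were taken by exact gene symbol. All 5 were measured, each by 1 probe set, among 21154 gene symbols. Total RNA of RAW264 cells, a mouse macrophage-like cell line, was hybridized to 8 arrays of the Clariom S mouse design, with 2 arrays in each of 4 groups. BTEE-treated cells received an ethanol extract of the green alga Botryococcus terribilis (strain TEPMO-26) at 0.2 mg/mL for 24 h, and control cells were kept for those 24 h without it. All 4 groups were then stimulated with 1 ng/mL lipopolysaccharide (LPS, from E. coli O111:B4), for 6 h in one control and one BTEE group and for 17 h in the remaining groups. No array of unstimulated cells was among them, so the response to LPS itself was not measured here. The sources used here do not say whether the control medium held the ethanol of the extract, so the extract and its solvent cannot be told apart. The paper reports a lack of significant cytotoxicity only for BTEE concentrations below the one given to the cells of these arrays. Whether toxicity had a part in the differences between BTEE-treated and control cells was not tested.

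Each cytokine of the family is secreted as a pair of different chains, and the chains are shared. The p40 chain (Il12b) pairs with p35 (Il12a) to form IL-12, which drives type 1 helper T cells and interferon gamma, and with p19 (Il23a) to form IL-23, which maintains type 17 cells. The EBI3 chain (Ebi3) pairs with p28 (Il27) to form IL-27, which has both pro- and anti-inflammatory actions on T cells and macrophages, and with p35 to form IL-35. Macrophages and dendritic cells are the main sources of IL-12, IL-23 and IL-27 after Toll-like receptor stimulation.

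Values are log2 signals, and signals of different probe sets were not set against each other as amounts of RNA. A gene is said to have risen or fallen where the limma adjusted p, taken over all 21154 symbols, was under 0.05. The 2 arrays of each group correlated at 0.998 to 0.999 over all symbols, arrays that differed only in BTEE at 0.994 to 0.995, and arrays of different times at 0.9753 to 0.9797. The medians of the arrays lay between 5.25 and 5.28. Macrophage markers had a median signal of 14.9 to 15.6 over the 4 groups, with Mertk the lowest of the 9 at 3.82 to 4.59. With BTEE, 3 of the 9 fell and 1 rose at 6 h, beside 15.7% and 14.5% of all symbols. At 17 h 1 fell and 1 rose, beside 13.6% and 14.9% of all symbols. Of 8 dendritic cell markers, the medians were 3.65 to 4.24, and those of T and NK, B cell and neutrophil markers were 3.30 to 4.12, although Cd4 read 7.38 to 8.07. As a guide to the signal of genes that macrophages are not known to use, 1095 olfactory receptor genes had a median of 3.6, and their 5th and 95th percentiles, here called the olfactory range, were 2.72 and 5.18. Of these genes 21.6% passed the limma test for BTEE at 6 h and 17.8% at 17 h, so a call inside that range is given with this share in mind. Whether the replicates were grown as separate cultures is not given in the sources used here, and each p-value therefore reflects only how far these arrays scattered, which may be technical.

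Il27 was by far the most variable gene of the family, and Ebi3, its partner, moved the other way at both times. At 6 h of LPS, Il27 fell 2.02-fold and Ebi3 rose 1.24-fold in BTEE-treated cells. At 17 h, Il27 rose 1.40-fold and Ebi3 fell 1.25-fold, and Il23a rose 1.65-fold. Il12b and Il12a did not pass the test at either time. The test passed 30.2% of all symbols at 6 h and 28.5% at 17 h, so 2 of 5 and 3 of 5 subunits past it are not counts that set the family apart. The median log2 difference of the 5 genes was -0.205 at 6 h and 0.475 at 17 h, beside -0.005 and 0.005 over all symbols. These medians are the values of Il23a at 6 h and Il12b at 17 h, neither of which passed the test. Ebi3 moved against the median at each time, so the medians do not describe a shift of the whole family. The spread of the same differences over the olfactory receptor genes, whose median signal was 3.6, was also added to the standard errors. With it, 0 subunits passed for BTEE at either time, but so did 0 of all 21154 symbols. This outcome therefore says nothing particular to the subunits. The falls of Il27 between the times still passed, beside 968 of all symbols in control and 570 in BTEE-treated cells.

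**Figure D1:**
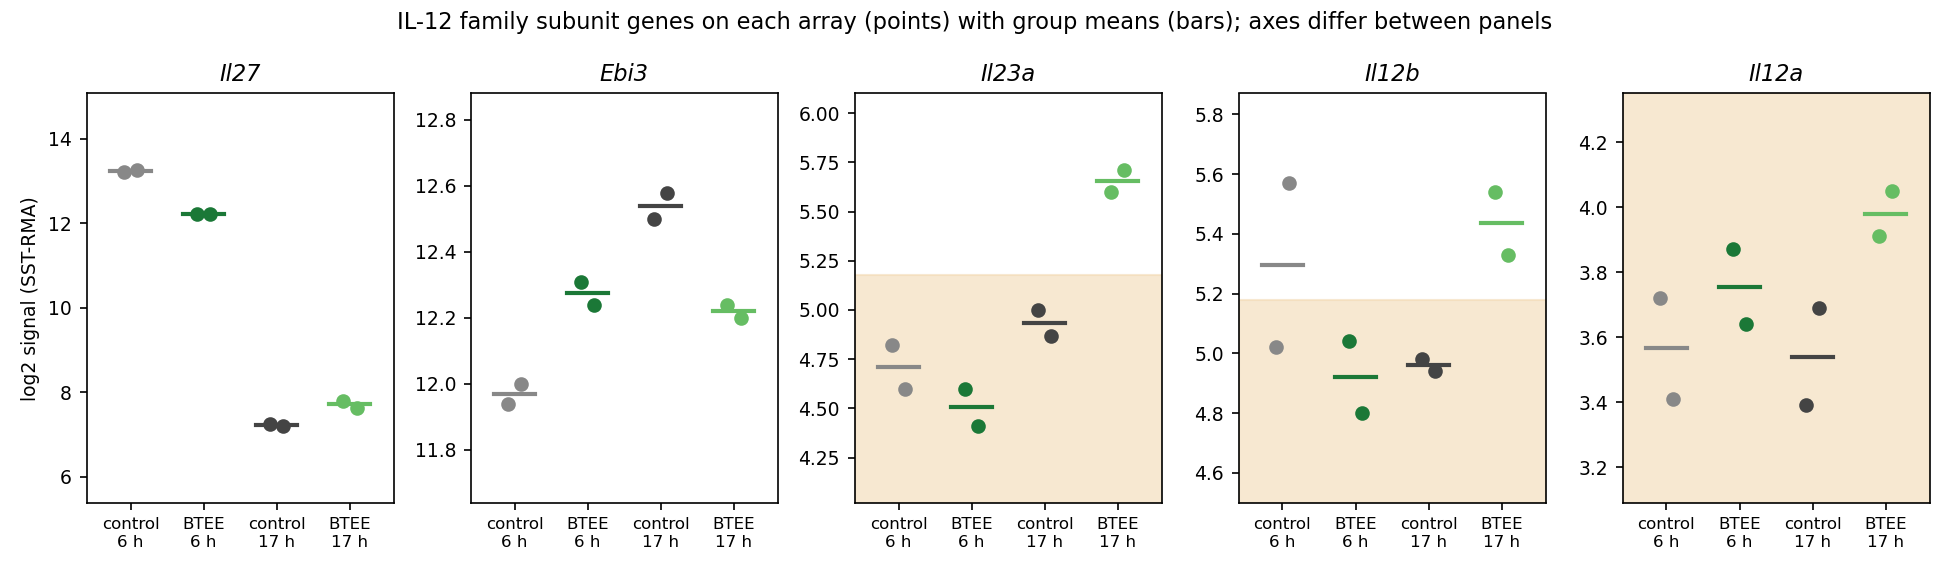
Log2 signal (vertical axis, scale differing between panels) of the 5 subunit genes on each of the 8 arrays, with 1 point per array, a bar at each group mean and shading for the range from the 5th to the 95th percentile of olfactory receptor genes. Il27 lay between 12.21 and 13.25 at 6 h and between 7.20 and 7.80 at 17 h, all Ebi3 arrays lay between 11.94 and 12.58, and Il12a stayed within the shaded range on all 8 arrays.

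Il27, which encodes the p28 chain, lies on chromosome 7 (chr7:126589009-126595035, mm10). On the control arrays at 6 h its signal was 13.21 and 13.25, and on the BTEE arrays 12.21 and 12.22. At 17 h it was 7.25 and 7.20 on the control arrays and 7.80 and 7.62 on the BTEE arrays. Both BTEE arrays were thus below both control arrays at 6 h and above both at 17 h, with no overlap at either time, as was the case for 67.2% of all symbols at 6 h and 66.5% at 17 h. The group means were 13.23 ± 0.03, 12.215 ± 0.01, 7.225 ± 0.04 and 7.71 ± 0.13 (SD, n = 2), in the order control 6 h, BTEE 6 h, control 17 h and BTEE 17 h.

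The difference of BTEE from control for Il27 was -1.015 at 6 h (SE 0.082, 95% interval -1.21 to -0.82, limma adjusted p = 8.33e-04), the 146th lowest of 21154 symbols. In a bulk culture, fewer cells that use a gene and less of its RNA per cell cannot be told apart. At 17 h the difference was 0.485 (95% interval 0.29 to 0.68, limma adjusted p = 0.00679). Both calls held when any single array was left out. The BTEE effect itself changed by 1.5 between the times (SE 0.12, limma adjusted p = 0.00116), the 74th highest of all symbols, of which 31.4% passed that test. Only 5.71% of symbols passed at both times in opposite directions, and Il27 and Ebi3 were the subunits that did.

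Between 6 h and 17 h of LPS, Il27 fell by 6.005 on the log2 scale in control cells, which is 64.2-fold (SE 0.082, limma adjusted p = 4.18e-08). Just 2 of the 21154 symbols had a lower difference. In BTEE-treated cells it fell by 4.505, or 22.7-fold (limma adjusted p = 1.12e-07), the 18th lowest value. The order of its 4 groups was therefore control 6 h, BTEE 6 h, BTEE 17 h and control 17 h, and each pair of neighbours in it differed past the threshold. By the same rule 52.3% of all symbols changed between the times in control cells and 47.6% in BTEE-treated cells, so it was the rank of the Il27 fall, not its call, that was unusual.

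Ebi3, which encodes the chain shared by IL-27 and IL-35, lies on chromosome 17 (chr17:55952623-55957022, mm10). Its signal on the control arrays was 11.94 and 12 at 6 h and 12.50 and 12.58 at 17 h. On the BTEE arrays it was 12.31 and 12.24 at 6 h and 12.24 and 12.20 at 17 h. BTEE arrays lay above both control arrays at 6 h and below both at 17 h, so the order of Il27 was turned around at each time. Of all symbols, the groups lay apart for 67.2% at 6 h and 66.5% at 17 h. The differences were 0.305 at 6 h (SE 0.073, 95% interval 0.13 to 0.48, limma adjusted p = 0.0209) and -0.32 at 17 h (95% interval -0.49 to -0.15, limma adjusted p = 0.0185).

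These Ebi3 calls rested on all arrays of the compared groups. Leaving out control replicate 1 or 2 or BTEE replicate 1 or 2 gave adjusted p-values of 0.0883, 0.0545, 0.0965 and 0.0558 at 6 h, and of 0.0531, 0.0954, 0.0586 and 0.0796 at 17 h. The change of the BTEE effect between the times, -0.625 (SE 0.10, limma adjusted p = 0.00575), held without any single array. In control cells Ebi3 rose by 0.57 between the times, or 1.48-fold (limma adjusted p = 4.65e-04), while in BTEE-treated cells the difference was -0.055 (limma adjusted p = 0.570) and the arrays overlapped. Control cells at 17 h thus had the highest Ebi3 mean, 12.54, and control cells at 6 h the lowest, 11.97. The BTEE means of 12.275 and 12.22 lay between them, and their arrays overlapped.

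Set against each other on each array, the signal of Il27 relative to Ebi3 moved by -1.32 log2 units with BTEE at 6 h and by 0.805 at 17 h. Between the times it moved by -6.575 in control and by -4.45 in BTEE-treated cells. The gap was 1.27 and 1.25 on the control arrays at 6 h and -0.10 and -0.02 on the BTEE arrays, and -5.25 and -5.38 against -4.44 and -4.58 at 17 h. The groups did not overlap, although with 2 arrays against 2 an exact 2-sided permutation test could not give a p under 0.333, and these gaps are given without a test. Each gap compares the 2 probe sets only as a change, not as a ratio of RNA amounts.

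**Figure D2:**
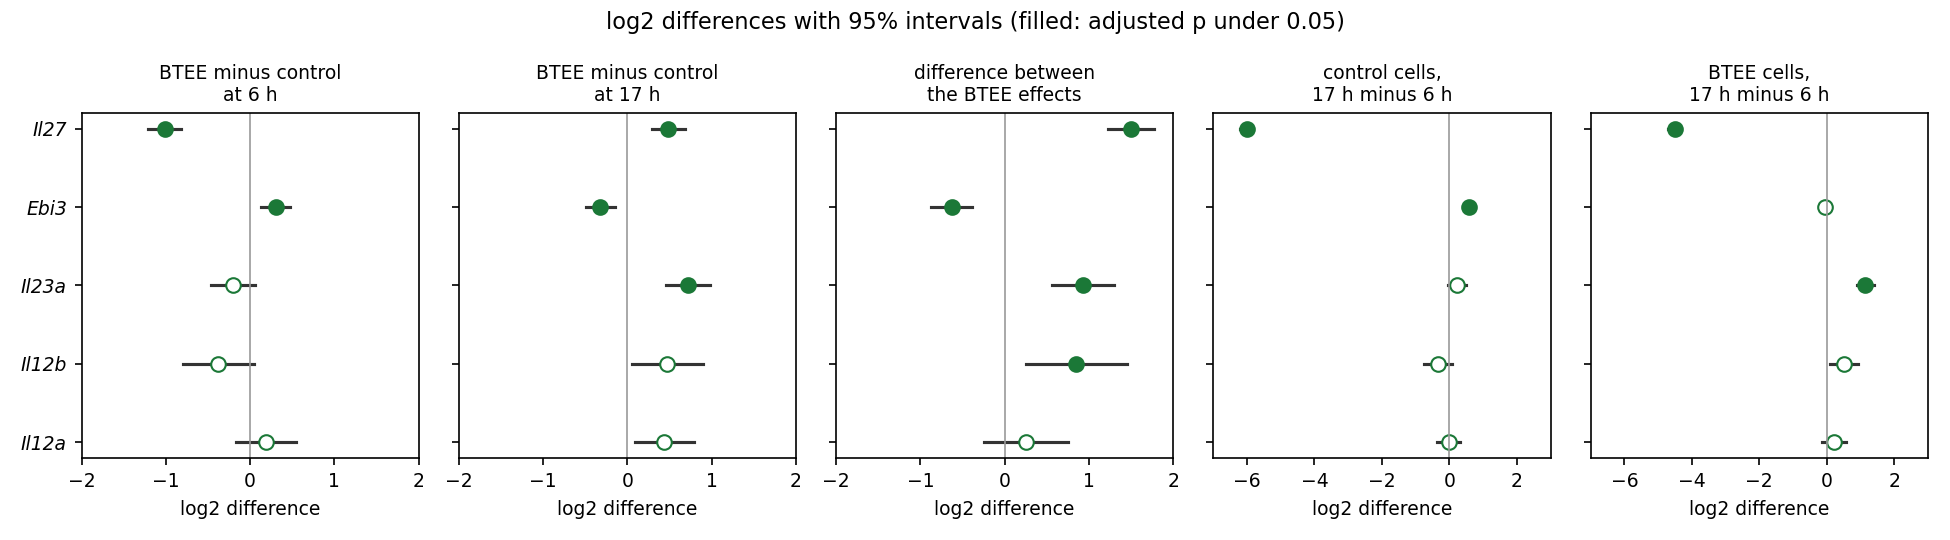
Log2 differences (horizontal axis, points) of the 5 subunit genes with 95% limma intervals (lines) in 5 comparisons, filled where the adjusted p was under 0.05; the horizontal scale of the comparisons between times is wider. Il27 and Ebi3 lay on opposite sides of 0 at both times, and Il27 reached -6.005 between 6 h and 17 h in control cells.

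Il23a, which encodes the p19 chain found only in IL-23, lies on chromosome 10 (chr10:128296140-128298084, mm10). On the control arrays its signal was 4.82 and 4.6 at 6 h and 5.00 and 4.87 at 17 h. On the BTEE arrays it was 4.6 and 4.41 at 6 h and 5.60 and 5.71 at 17 h. Only the BTEE arrays at 17 h stood apart, above all others and above the 95th percentile of the olfactory receptor genes, 5.18, while the other 6 arrays lay inside that range.

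Il23a rose by 0.72 with BTEE at 17 h, or 1.65-fold (SE 0.11, 95% interval 0.46 to 0.98, limma adjusted p = 0.00501). At 6 h the difference was -0.205 (95% interval -0.46 to 0.05, limma adjusted p = 0.197) and one control array equalled one BTEE array. The effect differed between the times by 0.925 (SE 0.16, limma adjusted p = 0.00611). Within BTEE-treated cells Il23a rose by 1.15 from 6 h to 17 h, 2.22-fold (limma adjusted p = 1.24e-04), and in control cells the difference was 0.225 (limma adjusted p = 0.128). All 3 calls held without any single array. In the order of its group means, the lower 3 groups, control 17 h, control 6 h and BTEE 6 h, did not differ past the threshold from one to the next.

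Il12b, which encodes the p40 chain of IL-12 and IL-23, lies on chromosome 11 (chr11:44400063-44414677, mm10). Its signal was 5.02 and 5.57 on the control arrays and 5.04 and 4.80 on the BTEE arrays at 6 h. At 17 h it was 4.98 and 4.94 on the control arrays and 5.54 and 5.33 on the BTEE arrays. One control array at 6 h and both BTEE arrays at 17 h were above the olfactory range, and the other 5 arrays were within it. The groups overlapped at 6 h and were apart at 17 h, as they were for 66.5% of all symbols at 17 h.

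The Il12b differences were -0.375 at 6 h (SE 0.18, 95% interval -0.80 to 0.05, limma adjusted p = 0.157) and 0.475 at 17 h (95% interval 0.05 to 0.90, limma adjusted p = 0.0906). Between these effects the difference was 0.85 (SE 0.26, limma adjusted p = 0.0425). That call was lost when any array but control replicate 1 at 6 h was left out, with adjusted p-values of 0.0582 to 0.117, and it was also lost with replicate number as a block (adjusted p = 0.0641). The 2 control arrays at 6 h were 0.55 apart. Without replicate 1, which read 5.02, the 6 h difference was -0.65 (limma adjusted p = 0.0293), and without one or the other of the 2 the 17 h difference of 0.475 passed the test (limma adjusted p = 0.0292). It also passed with only the compared arrays (adjusted p = 0.0317) and with a robust prior with an intensity trend (0.0471). Between the times the Il12b differences were -0.335 in control (limma adjusted p = 0.162; -0.61 with adjusted p = 0.0138 without control replicate 1 at 6 h) and 0.515 in BTEE-treated cells (limma adjusted p = 0.0509; 0.0118 without one or the other control array at 6 h). In the order of the means, BTEE 17 h, control 6 h, control 17 h and BTEE 6 h, the arrays of the upper pair overlapped, as did those of the lower pair.

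Il12a, which encodes the p35 chain of IL-12 and IL-35, lies on chromosome 3 (chr3:68690644-68698550, mm10). Its signal was 3.72 and 3.41 on the control arrays and 3.87 and 3.64 on the BTEE arrays at 6 h, and 3.39 and 3.69 against 3.91 and 4.05 at 17 h. All 8 values were inside the olfactory range. The groups overlapped at 6 h and not at 17 h, when 66.5% of all symbols had groups without overlap. The differences were 0.19 at 6 h (95% interval -0.16 to 0.54, limma adjusted p = 0.369) and 0.44 at 17 h (95% interval 0.09 to 0.79, limma adjusted p = 0.0658), and they differed by 0.25 (SE 0.21, limma adjusted p = 0.397). No difference between the times passed the test, so no neighbours in the order of the 4 means, BTEE 17 h, BTEE 6 h, control 6 h and control 17 h, differed past the threshold.

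The receptors of the family, which are mostly carried by T and NK cells, read low on these arrays except for Il6st. Il12rb1 (shared by the IL-12 and IL-23 receptors), Il12rb2 (IL-12), Il23r (IL-23) and Il27ra (IL-27) lay between 2.85 and 4.92, inside the olfactory range. Il6st, which encodes gp130, the chain of the IL-27 receptor that it shares with the IL-6 family, lay between 10.23 and 12.03. At 6 h 1 of the 5 receptor genes fell and 0 rose, and at 17 h 1 fell and 2 rose. Of all symbols 15.7% fell and 14.5% rose at 6 h, and 13.6% fell and 14.9% rose at 17 h.

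Il23r was the receptor gene with the largest differences between BTEE and control at either time. It read 4.26 and 4.19 on the control and 3.50 and 3.73 on the BTEE arrays at 6 h, and 4.11 and 3.95 against 4.92 and 4.67 at 17 h. BTEE arrays lay below the controls at 6 h and above them at 17 h without overlap, as groups did for 67.2% and 66.5% of all symbols. All 8 values were inside the olfactory range. Of the olfactory receptor genes 21.6% passed the same test at 6 h and 17.8% at 17 h. It fell by 0.61 at 6 h (SE 0.12, limma adjusted p = 0.0108) and rose by 0.765 at 17 h (limma adjusted p = 0.00545), and the effects differed by 1.375 (limma adjusted p = 0.00242). The 6 h call was lost without control replicate 1 (adjusted p = 0.0516) or BTEE replicate 1 (0.0572).

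Of the other receptor genes, Il27ra rose by 0.41 at 17 h (limma adjusted p = 0.0297) after a difference of -0.07 at 6 h (adjusted p = 0.653). Il6st fell by 0.26 at 17 h (limma adjusted p = 0.0347) after -0.05 at 6 h (adjusted p = 0.628). Both calls at 17 h depended on single arrays. For Il27ra the adjusted p was 0.0689 to 0.140 without one of the control arrays or BTEE replicate 1, and for Il6st it was 0.0504 to 0.137 without any one array of the compared groups or of the 6 h controls. Il6st rose by 1.68 in control cells between the times (limma adjusted p = 1.87e-06), a direction opposite to that of Il27. Il12rb1 had differences of -0.45 at 6 h (adjusted p = 0.0562; 0.0289 without one or the other BTEE array at 17 h) and 0.275 at 17 h (adjusted p = 0.203), and Il12rb2 of 0.025 and -0.125 (adjusted p = 0.875 and 0.397).

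**Figure D3:**
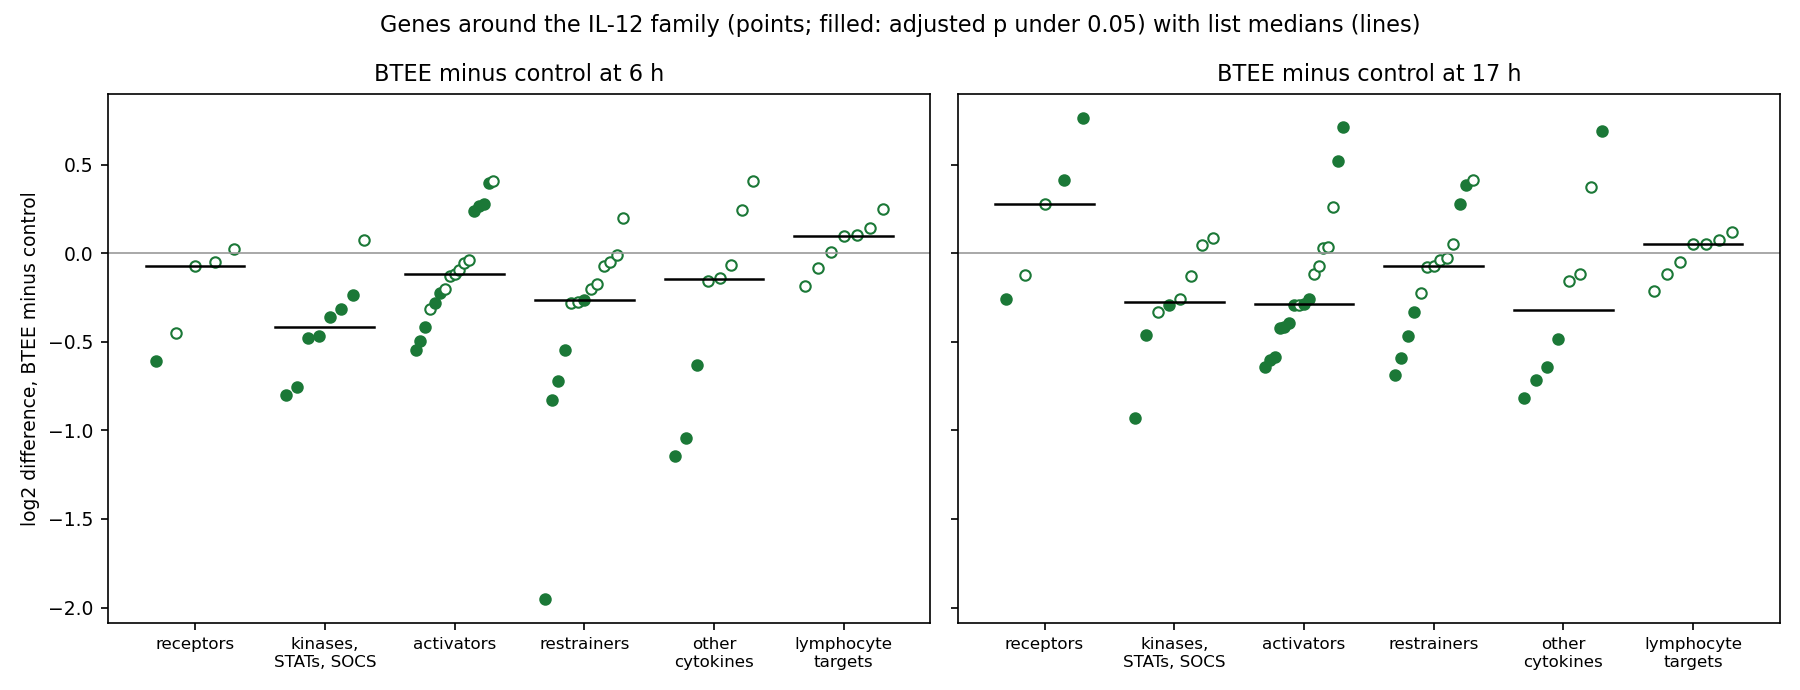
Log2 difference of BTEE from control (vertical axis) at 6 h (left) and 17 h (right) for each gene of 6 lists around the IL-12 family, with 1 point per gene, filled where the limma adjusted p was under 0.05, and a line at the list median. Of the 8 kinase, STAT and SOCS genes 7 fell at 6 h, the lowest point is Maf at -1.95, and no lymphocyte target passed at either time. The lymphocyte targets all had mean signals inside the olfactory range.

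Downstream of the receptors, 7 of 8 genes of the Janus kinases, STAT proteins and their SOCS inhibitors fell with BTEE at 6 h, and 3 fell at 17 h, with 0 rising at either time. The median differences were -0.415 and -0.28. Falls past the test were seen for 15.7% of all symbols at 6 h and 13.6% at 17 h. Jak1, a kinase of gp130, fell by 0.36 at 6 h (limma adjusted p = 0.0158) and by 0.93 at 17 h (0.00122). Jak2 and Tyk2, the kinases of the IL-12 and IL-23 receptors, fell by 0.48 (0.00413) and 0.47 (0.00779) at 6 h.

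At 17 h Jak2 fell by 0.295 (adjusted p = 0.0225), whereas the Tyk2 difference was 0.045 (adjusted p = 0.720) and changed sign with quantile normalization. Socs3, the inhibitor of gp130 signaling, fell by 0.755 at 6 h (limma adjusted p = 0.00631), and Socs1 by 0.80 (limma adjusted p = 0.0283). At 17 h their differences were -0.335 and -0.26 (adjusted p = 0.0907 and 0.390). Calls here that hung on single arrays were Jak1 at 6 h (adjusted p = 0.0694 without control replicate 2, 0.0763 without BTEE replicate 2), Socs1 at 6 h (0.125 and 0.0663 without BTEE replicate 1 or 2), Jak2 at 17 h (0.0523 to 0.102 without any one array of its groups) and Socs3 at 17 h, which passed without BTEE replicate 2 (-0.515, adjusted p = 0.0318). Like Il27, Socs3 dropped steeply between the times, by 5.61 in control cells (limma adjusted p = 1.59e-07).

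Among 17 genes of factors that activate IL-12 family genes in macrophages, 5 fell and 4 rose at 6 h, and 9 fell and 2 rose at 17 h. Falls past the test were seen for 15.7% of all symbols at 6 h and 13.6% at 17 h, and rises for 14.5% and 14.9%. The medians of the list were -0.115 and -0.285. Of those with the largest differences, Irf8, a factor needed for p40 transcription, rose by 0.395 at 6 h (limma adjusted p = 0.00765) and fell by 0.64 at 17 h (0.00196). Rela, the p65 subunit of NF-kB, rose by 0.265 (0.0272) and fell by 0.585 (0.00230) at the same times. Both thus moved in the direction opposite to Il27, and in the same direction as Ebi3, at each time. A link to either gene was not tested.

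Irf7, an interferon regulatory factor, fell at both times, by 0.545 (limma adjusted p = 0.00246) and 0.29 (0.0204). Stat2, a partner of Irf9 in interferon signaling, fell by 0.605 at 17 h (0.00225), with a 6 h difference of -0.055 (adjusted p = 0.585) that changed sign with quantile normalization. Fos, a subunit of AP-1, rose by 0.71 at 17 h (0.00730) and had a difference of -0.115 at 6 h (adjusted p = 0.512). The Rela call at 6 h was lost without any one of its 4 arrays (adjusted p = 0.0644 to 0.119), and so was the Irf7 call at 17 h (0.0589 to 0.0974).

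Of 13 genes of signals and factors that restrain the family, 5 fell and 0 rose at 6 h, and 4 fell and 2 rose at 17 h, beside falls of 15.7% and 13.6% and rises of 14.5% and 14.9% of all symbols. The medians were -0.265 and -0.07. Maf, which encodes c-Maf, a repressor of IL-12 genes and an activator of Il10, read 6.05 and 5.89 on the control arrays at 6 h and 3.99 and 4.05 on the BTEE arrays. It fell by 1.95, or 3.86-fold (SE 0.11, limma adjusted p = 6.01e-04), to values inside the olfactory range. At 17 h it fell by 0.59 (limma adjusted p = 0.0101; 0.0622 without control replicate 2).

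Il10, the anti-inflammatory cytokine, changed in the same directions as Il27, down by 0.545 at 6 h (limma adjusted p = 0.0100) and up by 0.385 at 17 h (0.0337). Its 6 h call was lost without control replicate 2 (adjusted p = 0.0502) or BTEE replicate 1 (0.0548), and its 17 h call without any one array of the compared groups (0.0598 to 0.161). The adenosine receptor genes Adora2a and Adora2b, whose products raise cAMP, fell by 0.83 (0.00237) and 0.72 (0.00286) at 6 h. Adora2a read 5.76 and 5.67 on the control arrays and 4.95 and 4.82 on the BTEE arrays, the latter inside the olfactory range. At 17 h Adora2b fell by 0.685 (0.00363) and the difference of Adora2a was -0.08 (adjusted p = 0.590), which changed sign without control or BTEE replicate 1. Bcl3, an IkB family protein, fell by 0.465 at 17 h (0.00551), with a 6 h difference of -0.01 (adjusted p = 0.930) whose sign depended on the normalization.

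Other cytokines that macrophages make on LPS followed several courses. Of 8 genes, 3 fell and 0 rose at 6 h (15.7% and 14.5% of all symbols), and 4 fell and 1 rose at 17 h (13.6% and 14.9%). Il6 fell at both times, by 1.145 (limma adjusted p = 6.01e-04) and 0.82 (0.00122), and Il1a fell by 0.63 (0.00155) and then fell by 0.715 (0.00142). Il18 fell by 1.045 at 6 h (8.33e-04), a size close to that of Il27, with a difference of -0.115 at 17 h (adjusted p = 0.337). Il1b fell by 0.64 at 17 h (0.00236) after -0.155 at 6 h (adjusted p = 0.164). Csf2, which encodes GM-CSF, rose by 0.69 at 17 h (0.00910) after 0.405 at 6 h (adjusted p = 0.0509; 0.0344 without one or the other control array at 17 h).

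The genes that IL-12 and IL-23 switch on in lymphocytes, such as Ifng, Tbx21 and Il17a, were checked as well. Of 7, 0 passed limma's test in either direction at either time, beside 30.2% of all symbols at 6 h and 28.5% at 17 h. Their means over the arrays lay between 3.12 and 4.93, all inside the olfactory range. The arrays held a macrophage-like line, so these values cannot show a response of lymphocytes. Dendritic cells are another source of the family. Their 8 markers summed to 7.83 to 7.84 in log2 on the control arrays at 6 h and to 7.54 to 7.61 on the BTEE arrays, and at 17 h to 7.62 to 7.79 and 7.65 to 7.80. At 6 h 3 of them fell and 0 rose, beside 15.7% and 14.5% of all symbols. Xcr1 fell by 1.535 (limma adjusted p = 0.00299), Cd209a by 0.645 (0.00620) and Ccr7 by 0.375 (0.0188). Their control and BTEE means at 6 h were 5.18 and 3.645, 4.24 and 3.595, and 6 and 5.625. The olfactory range was 2.72 to 5.18, and 21.6% of olfactory receptor genes passed the same test. The differences of the other defining markers, which did not pass, were 0.51 for Clec9a, 0.25 for Flt3, 0.14 for Siglech, -0.165 for Zbtb46 and -0.25 for Itgae. The markers were named after their values were seen, and their part in the Il27 difference was not tested.

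**Figure D4:**
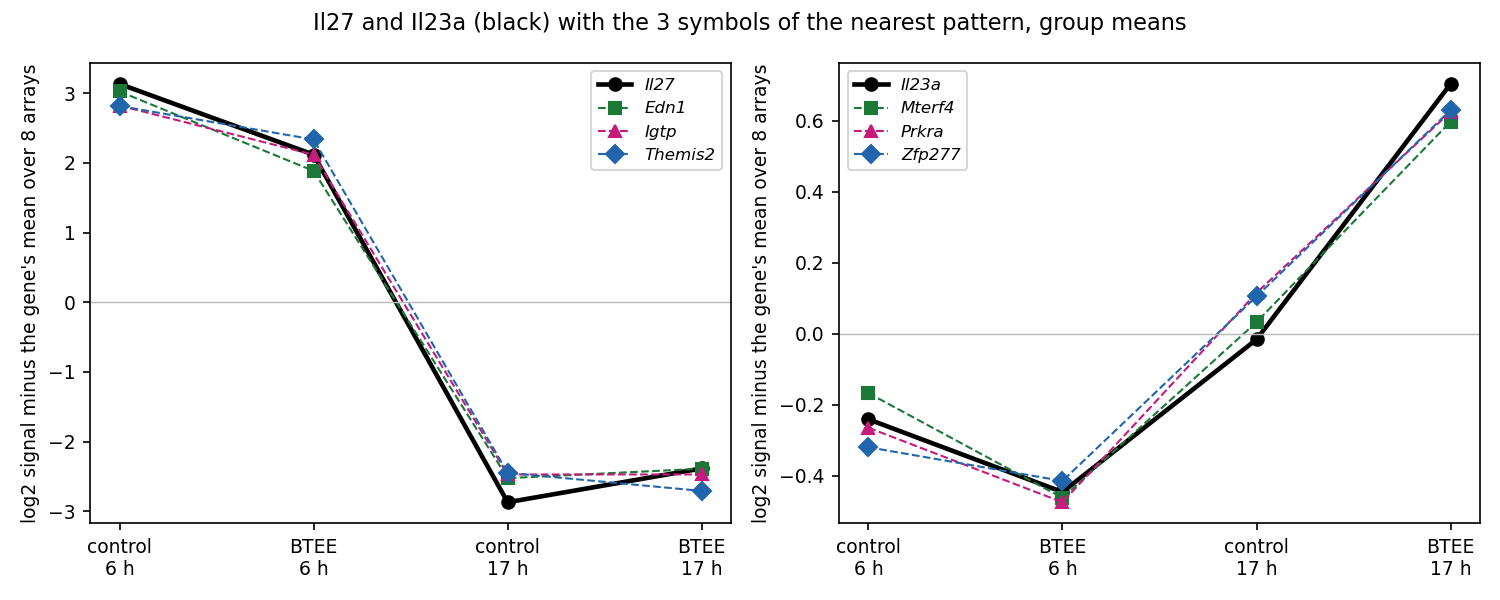
Group means of log2 signal, each gene centred on its own mean over the 8 arrays (vertical axis), in the 4 groups (horizontal axis, joined by lines only as a guide), for Il27 (left) and Il23a (right) in black and the 3 symbols with the nearest pattern in colour. Edn1, Igtp and Themis2 shared the fall of Il27 from 6 h to 17 h, and Mterf4, Prkra and Zfp277 the high value of Il23a in BTEE-treated cells at 17 h.

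To place the 2 most variable subunits among all genes, the symbols with the nearest pattern over the 8 arrays were sought among those of a mean log2 signal of at least 6. Il27 was nearest to Edn1 (endothelin 1; root mean square difference of centred log2 signals 0.23, Pearson's r 0.998), Igtp (an interferon-inducible GTPase; 0.26, r 0.997) and Themis2 (0.33, r 0.992), out of 9386 symbols. Edn1 had group means of 10.165, 9.025, 4.615 and 4.75 in the order control 6 h, BTEE 6 h, control 17 h and BTEE 17 h. Its difference with BTEE was -1.14 at 6 h and 0.135 at 17 h, against -1.015 and 0.485 for Il27. Igtp and Themis2 differed by -0.705 and -0.48 at 6 h and by 0 and -0.26 at 17 h, so none of the 3 had a 17 h difference as high as that of Il27.

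Il23a was nearest to Mterf4 (a mitochondrial protein; root mean square difference 0.095, r 0.982), Prkra (an activator of the kinase PKR; 0.10, r 0.974) and Zfp277 (a zinc finger protein; 0.11, r 0.967), out of 9387 symbols. Their differences with BTEE at 17 h were 0.565, 0.51 and 0.525, against 0.72 for Il23a. The points share the 4 group means, so these correlations describe likeness over 8 arrays and carry no test. The group means of Ebi3, Il12b and Il12a spanned 0.57, 0.515 and 0.44, under the 0.6 set for this search.

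Genes within 50 kb of the subunit genes were looked at for their own courses. Il27 overlaps the annotated span of Apobr, which fell by 2.205 from 6 h to 17 h in control cells (limma adjusted p = 4.17e-06), against 6.005 for Il27, and whose differences with BTEE were -0.255 at 6 h (adjusted p = 0.130) and -0.02 at 17 h (adjusted p = 0.912). The further neighbours Cln3, Eif3c and Nupr1, at 3192, 22643 and 28211 bp, rose between the times, by 0.29, 0.73 and 1.665 (adjusted p = 0.0139, 1.69e-04 and 2.43e-06). With BTEE at 17 h, Nupr1 rose by 0.29 (adjusted p = 0.0292) and Cln3 fell by 0.275 (adjusted p = 0.0327). Il23a lies 3287 bp from Stat2, which fell by 0.605 with BTEE at 17 h while Il23a rose. Cnpy2, Apon and Timeless, at 24074, 40239 and 43199 bp, rose with Il23a, by 0.69, 0.4 and 0.37 (adjusted p = 0.00168, 0.0421 and 0.0203). The mean signal of Apon, 2.58, was under the olfactory range. Pan2, Apof and Cs, also near Il23a, did not pass at 17 h (adjusted p = 0.244, 0.440 and 0.968). Rises past the test at 17 h were seen for 14.9% of all symbols. Ebi3 overlaps the span of Zfp119b, which fell by 0.59 with BTEE at 6 h (adjusted p = 0.0128) while Ebi3 rose. Stap2, at 40052 bp, rose with Ebi3 at 6 h by 0.535 (adjusted p = 0.00558), and Fsd1, at 29440 bp, fell by 0.405 at 6 h (adjusted p = 0.00906) and fell by 0.325 at 17 h (adjusted p = 0.0198). Ublcp1, at 39894 bp from Il12b, rose by 0.345 at 17 h (adjusted p = 0.0351). Where gene spans overlap, the arrays' annotation used here does not show whether probes of one could read transcripts of the other.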

How the data were processed

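RNA of 8 samples was measured on Clariom S arrays. The authors processed them in the Transcriptome Analysis Console by signal space transformation and robust multichip analysis (SST-RMA), in version 4.0.1 per the series text, and deposited 1 log2 signal per probe set and array, which was used as given. They also deposited, for each time, a comparison table of symbols, mean log2 signals by group, fold changes with a sign (a score), p-values and FDRs. Only symbols and averages were taken from these tables. The averages differed from means of the log2 signals by at most 0.005. Of 22206 probe sets, 836 with several symbols and 3 with none were left out, as were 213 dimmer ones of a symbol, which left 21154.

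The test was limma's moderated one (limma 3.58.1, R 4.3.3), in a model of the 4 group means over all 8 arrays that left 4 residual and added 3.12 prior degrees of freedom. P-values were adjusted over all symbols by the method of Benjamini and Hochberg. Comparisons with the same group share its arrays. The fit was tested on simulated data. The number of arrays limits the precision.

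The 5 members, the 12 gene lists and the tests were chosen with earlier results of these data known. Named genes were all subunits and receptors, up to 5 genes of each other pathway list with the largest BTEE difference among those with an adjusted p under 0.05 at that time, and the 3 nearest patterns of subunits whose group means spanned at least 0.6. Gene positions are from the RefSeq annotation of the build the arrays use (mm10). Alternatives were quantile normalization, median centring, a minimum mean signal of 6, only the arrays compared, a replicate block, a robust prior with an intensity trend, an unmoderated fit, averaging the probe sets of a symbol, an unadjusted p under 0.05 with a fold over 1.5, the spread of olfactory receptor genes added to the squared standard errors, and leaving out each array. Running them on pathway genes too was decided after seeing the data. No sequences were used here, and 1 further lymphocyte gene is not reported here.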

Additional observations from a re-analysis of the deposited data

Results flagged for a closer look

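The BTEE effect differed between 6 h and 17 h of LPS, by limma's test of that difference, for 4 of the 5 subunit genes, where 31.4% of all symbols passed. The 17 h effect minus the 6 h effect was 1.5 for Il27 (adjusted p = 0.00116), 0.925 for Il23a (adjusted p = 0.00611), 0.85 for Il12b (adjusted p = 0.0425) and -0.625 for Ebi3 (adjusted p = 0.00575). For Il27 and Ebi3 the effects at the 2 times also lay on opposite sides of 0, each past the test, although the Ebi3 calls at both times were lost without any one array of the compared groups (adjusted p = 0.0531 to 0.0965), whereas for Il23a and Il12b the 6 h effect did not pass. The Il12b call was lost without any one array but control replicate 1 at 6 h (adjusted p = 0.0582 to 0.117), with no moderation (0.139) and with the replicate block (0.0641). Il12a, at 0.25 (adjusted p = 0.397), did not pass.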

How the results depend on the processing

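Of 430 values of the subunit genes over the alternatives, 385 kept their direction and side of the threshold, 33 lost the threshold, 10 gained it and 2 changed sign. The number of subunits past the test at 6 h, 2, was 1 with only the compared arrays and 1 at an unadjusted p under 0.05 with a fold over 1.5. At 17 h it was 3, and 1 at those thresholds, and 4 with only the compared arrays or a robust prior with trend. With a minimum mean signal of 6 it was 2, Il27 and Ebi3, which were the only subunits tested. For the difference between the effects it was 4, and 2 with that minimum signal, which left Il12a, Il12b and Il23a untested. Between the times it was 2 in control cells, and 1 at the unadjusted thresholds, and 2 in BTEE-treated cells, and 1 with the minimum signal. With the spread of olfactory receptor genes added, the counts were 0 at 6 h, 0 at 17 h, 0 for the difference, 1 in control and 1 in BTEE-treated cells, the last 2 being Il27. That spread (SD 0.37 at 6 h and 0.35 at 17 h) holds array noise and any shift shared by a group's arrays. With it added to limma's standard errors, Il27 at 6 h had an unadjusted p of 0.0305 and an adjusted p of 0.997. Leaving out 1 array gave 1 to 2 subunits at 6 h, 2 to 4 at 17 h, 3 to 4 for the difference, 2 to 3 in control and 2 to 3 in BTEE-treated cells.

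The difference of Il27 ranged from -1.035 to -0.96 at 6 h, and its falls between the times passed under all 18 alternatives. Il12a between the times in control cells, -0.025, was 0.13 and 0.125 without replicate 1 of control 6 h or 17 h, and -0.18 to 0.13 over all arrays left out. Among pathway genes, of 884 values 770 were kept, 90 lost the threshold, 13 gained it and 11 changed sign, all of them differences that did not pass. These were, with quantile normalization, Stat2 at 6 h (0.014375), Bcl3 at 6 h (0.0234375) and Tyk2 at 17 h (-0.001875). Without 1 array they were Il12rb2 at 6 h (-0.07 to 0.12), Bcl3 at 6 h (-0.055 to 0.035), Il27ra at 6 h (-0.165 to 0.025), Adora2a at 17 h (-0.175 to 0.015) and Tyk2 at 17 h (-0.005 to 0.095), in ranges over the array left out. The cause was not tested.

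Arrays of the same replicate number shared almost no deviations (r from -0.00111 to 0.02022 over the 6 pairs of groups), so no pairing by number was seen. How the replicates were grown is not given, so these values cannot show whether such arrays shared a batch. With the replicate block the counts of subunits were 2 at 6 h, 3 at 17 h, 3 for the difference, 2 in control and 2 in BTEE-treated cells, and 1 subunit call changed, that of Il12b for the difference (adjusted p = 0.0641).

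Over all symbols, 6380 passed at 6 h and 6025 at 17 h. At the unadjusted thresholds 2204 and 1859 did, without 1 array of the compared groups 3555 to 3953 and 2938 to 3514, and with the olfactory spread 0 and 0 (433 and 352 at an unadjusted p under 0.05). For the difference 6651 passed, and 0 with that spread (447 unadjusted). Between the times 11054 passed in control and 10066 in BTEE-treated cells, 6273 and 5324 at the unadjusted thresholds, and 968 and 570 with the spread. With only the compared arrays 4628 passed at 6 h and 4970 at 17 h. A robust prior with trend gave 7621 and 7153, and the replicate block 6010 and 5561. At a minimum mean signal of 6, with 9387 symbols tested, 4701 passed at 6 h, 4962 at 17 h and 5066 for the difference. Between the times 7312 of them passed in BTEE-treated cells. Signals near the olfactory range limit what can be said of Il12a, Il12b, Il23a, Maf, Adora2a, Socs1 and the lymphocyte receptors.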
